A study of Mus musculus with 7 samples.

Results

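The messenger RNA content of control regulatory T cells (Treg) of mouse lymph node was described gene by gene. The members were all protein-coding rows of the deposited table of numbered libraries, 22740 of 39179 rows, and each was taken at its mean over the control libraries only. Of these, 181 rows lie on the mitochondrial chromosome or on patch scaffolds where every row is listed at 0, which leaves 22559 counted genes. A separate deposited table gives 20118 of them in 1 further control library. The series holds 7 libraries of Treg with and without the transcription regulators Id2 and Id3, and 3 of the libraries are labelled control.

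All libraries were made from cells sorted as CD4+, TCRb+, CD25hi and Foxp3+ out of lymph nodes, from C57BL/6 animals aged 3 weeks. The 2 numbered control libraries have the genotype Id2fl/+Id3fl/+Foxp3cre, so the control cells are not wild type. They carry 1 conditional allele of each gene and a Cre recombinase driven from Foxp3, which acts in cells that express Foxp3. The third, unnumbered library is titled control, but its genotype tag, Id2fl/flId3fl/flFoxp3cre, is that of the double knockout, and it is called the library labelled control throughout. Id2 had 783 scaled counts in the numbered control mean and 61.1 in the numbered double-knockout mean, and Id3 had 1376 and 891. In the unnumbered pair Id2 had 18.6 FPKM in the library labelled control and 9.69 FPKM in the one labelled double knockout, and Id3 had 160 and 221 FPKM. Which animals went into which library is not stated in the labels.

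Treg are CD4 T cells that restrain immune responses. The transcription factor Foxp3 defines them, they bind interleukin-2 through a receptor that includes CD25 (Il2ra), and the surface protein CTLA-4 limits co-stimulation by antigen-presenting cells. In lymph nodes they circulate with naive T cells, and a part of them turns into activated, tissue-seeking cells.

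A scaled count is a number of reads divided by a size factor of its library and averaged over the numbered libraries. Scaled counts of the control mean summed to 38950892, and 90.6% of them lay in protein-coding rows. To compare genes with each other, scaled counts were divided by the deposited exon length and expressed as parts of 1000000 of that sum over protein-coding rows (ppm). A gene at 1 ppm or more is called detected. For genes with a mean of up to 500 scaled counts, the reads of each control library could be recovered from the steps of the mean. The libraries had size factors of 1.29 and 1.09, and they are called the deeper and the other library because nothing shows which is replicate 1. Between means of 500 and 1000 they are given where only 1 solution exists, and above 1000 no spread can be given. In sorted bulk cells, a gene carried by few cells and a gene with little RNA in each cell cannot be told apart.

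The highest level was that of the elongation factor Eef1a1, at 16211 ppm. At 1 ppm or more stood 11298 of 22559 genes (50.1%), and 9448 stood at 5 ppm or more. Between 10 and 100 ppm lay 6496 genes, 1607 genes lay between 100 and 1000 ppm, and 124 genes reached 1000 ppm or more. No read was listed for 2713 genes. The median over the detected genes was 25.3 ppm. In the library labelled control, 10141 of 20118 genes had 1 FPKM or more, and 10082 genes passed the limit in both tables, while 725 passed in ppm only and 59 in FPKM only.

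**Figure D1:**
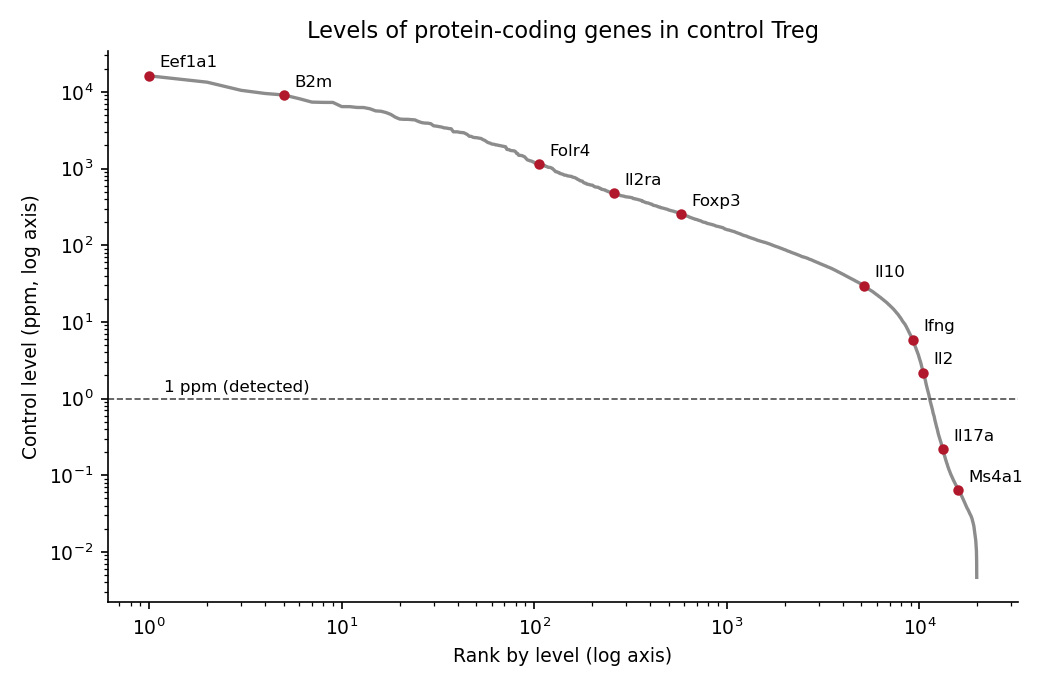
Level of each protein-coding gene with at least 1 read in the numbered control mean (ppm, log axis) against its rank by level (log axis). Points mark named genes and the dashed line marks 1 ppm. Eef1a1 leads at 16211 ppm, Il2ra and Foxp3 stand at 477 and 254 ppm, and Il17a and Ms4a1 lie below the line.

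The most abundant transcripts were those of protein synthesis, the actin cytoskeleton and antigen presentation. Eef1a1, which brings aminoacyl-tRNA to the ribosome, led with 538321 scaled counts and 16211 ppm. Actb, the beta-actin gene, followed with 477861 scaled counts and 13391 ppm. The remainder of the 20 highest scaled counts were, in order, Rplp0, Eef2, Lars2, H2-K1, Tpt1, Actg1, Rpl4, Rps4x, Tmsb4x, B2m, Rpl13a, Rpl7, Gnb2l1, Rpsa, H2-D1, Pabpc1, Coro1a and Hsp90ab1. Of these, Eef2 and Pabpc1 serve translation, H2-K1, H2-D1 and B2m form MHC class I molecules, and Tmsb4x and Coro1a bind actin. The 10 genes with the highest counts held 6.08% of all protein-coding scaled counts, the 100 highest held 20.2% and the 1000 highest held 52.6%.

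Of the 100 genes with the highest scaled counts, 40 were ribosomal protein genes by their deposited description, 11 belonged to the cytoskeleton, 6 were translation factors and 5 belonged to MHC class I. Ranked per length, 56 of the top 100 were ribosomal protein genes, which together made up 19.7% of the ppm. Only 7 genes were among the 20 highest by both rankings. Some of these rows cannot be separated from copies of the same gene. Rpsa had 98632 scaled counts, and 41.9% of the counts of Rpsa and its annotated copies lay in 8 copies at 95% identity or more. For Tpt1 that share was 20.4%, and for Eef1a1 it was 4.14%. Lars2, the mitochondrial leucyl-tRNA synthetase, held 153404 scaled counts and 2967 ppm, but 202.3 FPKM in the library labelled control. Actg1 had 3578 ppm and 28.0 FPKM, Rpsa 3979 and 70.7, Rps4x 5374 and 262, and Tpt1 4390 and 323. In the other direction Tmsb4x had 6028 ppm and 7582 FPKM, and Gnb2l1 had 1447 and 2859. The 20 highest by ppm and the 20 highest by FPKM shared 8 genes. Eef1a1, with 1856 FPKM, was not among the latter.

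Promoters of abundant and silent genes differed in how often they held some short motifs, and differed little in another. RefSeq promoters of 300 bases (GRCm38.p6, 250 before to 50 after the start) matched 16747 of the genes. The letters CCGGAAGT, the core bound by ETS factors such as Ets1, stood on either strand in 5.45% of all promoters, in 0.852% of those of genes listed at 0 and in 11.0% of those at 10 to 100 ppm. At 100 ppm or more the share was slightly lower than at 10 to 100 ppm. Among 70 cytosolic ribosomal protein genes the share was 18.6%, but it was 1.28% over 78 detected surface genes and 1.61% over 62 detected transcription factor genes of the lists. The letters TATAAA, on either strand, stood in 29.4% of promoters of genes listed at 0, in 5.57% of those at 10 to 100 ppm and in 9.57% of those at 100 ppm or more. The letters CCAAT, on either strand, stood in 39.9%, 39.3% and 40.1% of the same sets. A start at C followed by 4 or more of C or T, the pattern of many ribosomal protein messages, was found in 15.7% of the ribosomal protein genes and in 2.20% of all. These matches describe letters and show no binding.

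These 3 windows of 100 bases, from ribosomal protein genes at 3306, 2933 and 2282 ppm, show where the ETS core (in capitals, ACTTCCGG where it lies on the opposite strand) sits ahead of the start. They are Rps25 at chr9:44407601-44407700 (plus strand), Rpl19 at chr11:98026610-98026709 (plus strand) and Rpl41 at chr10:128549169-128549268 (minus strand).
Rps25: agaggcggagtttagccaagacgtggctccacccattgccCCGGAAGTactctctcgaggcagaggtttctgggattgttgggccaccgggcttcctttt
Rpl19: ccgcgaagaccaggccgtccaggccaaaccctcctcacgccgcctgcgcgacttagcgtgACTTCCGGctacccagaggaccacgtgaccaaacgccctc
Rpl41: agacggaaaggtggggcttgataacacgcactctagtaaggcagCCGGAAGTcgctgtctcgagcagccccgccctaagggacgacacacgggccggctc

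The genes that define Treg were all abundant. Foxp3 (chrX:7579676-7595243 in the deposited GRCm38 coordinates) had 13481 scaled counts, a level of 254 ppm and 126 FPKM in the library labelled control, and ranked 580 of 22559 by level. Il2ra had 32376 scaled counts, 477 ppm and 248 FPKM. Ctla4 had 13258 scaled counts, 427 ppm and 182 FPKM. Ikzf2, which encodes the Ikaros-family factor Helios, had 22751 scaled counts, 181 ppm and 69.8 FPKM. The markers thus stood between the 96.2 and the 98.9 percentile of all counted genes by ppm. Cells were sorted on CD25 and Foxp3, so Il2ra and Foxp3 were chosen by the sort, while Ctla4 and Ikzf2 were not.

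Markers of other cell types were mostly near 0. Over the 11 lists of such markers, 21 of 79 measured members were detected, against 11298 of 22559 (50.1%) over all counted genes. The lists differed, with 4 of 7 plasma cell, 2 of 4 gamma-delta T cell and 1 of 2 CD8 T cell markers detected. Ms4a1 of B cells stood at 0.0643 ppm, with 1 and 3 reads in the control libraries. Among dendritic cell markers Itgax had 1 and 4 reads, and among myeloid markers Cd14 had 3 reads in each library and Csf1r 24 and 29. None of the 8 granulocyte and mast cell markers and none of the 6 erythroid markers was detected. S100a8, Mcpt4, Klra8 and Clec9a were listed at 0, where 3 reads over both libraries would have been 0.263, 0.104, 0.0875 and 0.0313 ppm, which covers counting error only.

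A few members of these lists were well above the rest of their list. Ctss, a lysosomal protease of antigen-presenting cells, stood at 535 ppm, and Cebpb at 19.0 ppm. Xbp1, which also serves the secretory stress response in many cells, stood at 86.7 ppm, and Pecam1 at 56.3 ppm beside Cdh5 at 0.318 ppm. Cd79b stood at 46.9 ppm beside Cd79a at 3.67 ppm. The gamma-delta T cell markers Tcrg-C1 and Tcrg-C2, in rows that are not protein-coding, stood at 42.2 and 20.5 ppm. Sox13 of the same list stood at 0.147 ppm. Tcrg-C1 had 217 reads in the deeper library and 452 in the other, and Tcrg-C2 had 82 and 230. Cd8b1 stood at 35.1 ppm, with 35.4 and 34.8 ppm in the control libraries, beside Cd8a at 0.405 ppm with 14 and 25 reads. Cd1d1 stood at 35.7 ppm beside Rag1 and Rag2 at 0.0377 and 0.00852 ppm, and Ccr9, set among the dendritic cell markers, at 16.6 ppm. Which cells carried these transcripts was not tested.

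**Figure D2:**
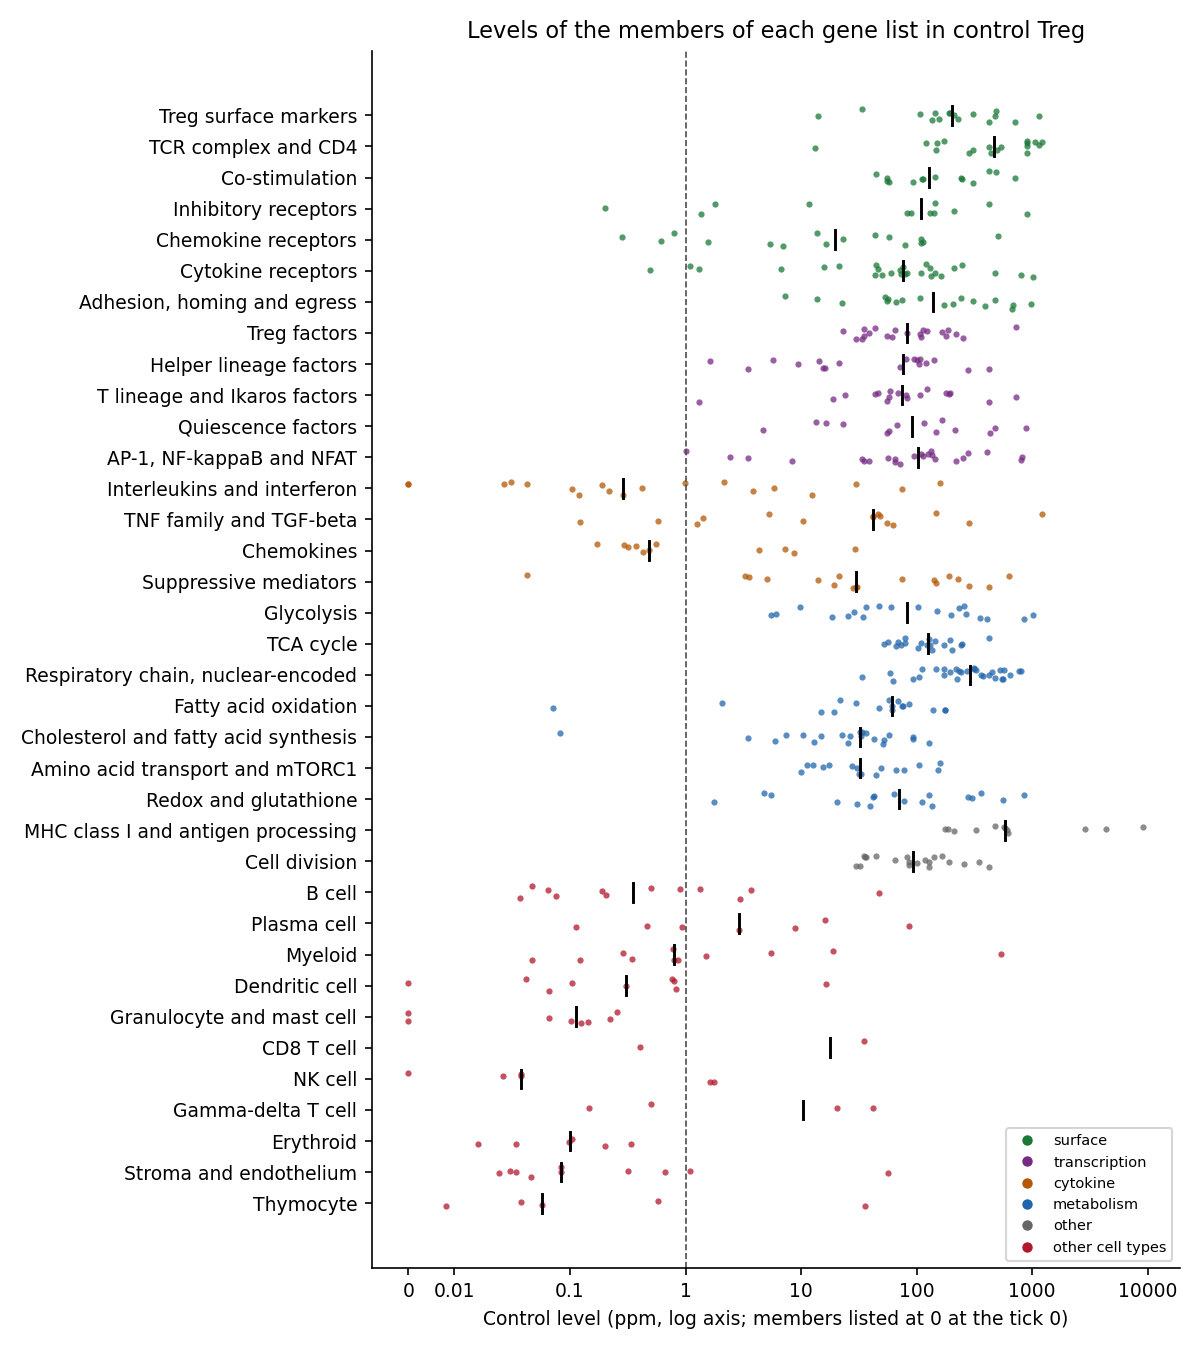
Level of each measured member of 36 gene lists in the numbered control mean (ppm, log axis). Each point is a gene, the black bar is the median of the list and the dashed line marks 1 ppm. Members of the surface, transcription and metabolism lists lie mostly above 10 ppm, interleukins and chemokines spread across the line, and markers of other cell types lie mostly to its left.

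The T cell receptor machinery was the most abundant of the surface groups. All 18 members of the receptor complex and CD4 list were detected, and their median of 468 ppm compares with 1.03 ppm over all counted genes. Lat, the adaptor that assembles signalling proteins, led with 1228 ppm and 723 FPKM. Cd3e, Cd3g and Cd3d, the CD3 chains, had 1148, 1054 and 903 ppm. The kinase Lck had 910 ppm, Cd5 had 907 ppm and Cd4 had 492 ppm. The lowest member was Themis, a regulator of receptor signal strength in thymocytes, with 13.3 ppm.

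All 16 measured Treg surface markers were detected, with a median of 203.6 ppm. Folr4, the folate receptor FR4, led with 1148 ppm and 1161 FPKM. The TNF receptor family members Tnfrsf4 (OX40) and Tnfrsf18 (GITR) followed with 710 and 487 ppm. Nt5e (CD73), which makes adenosine from AMP, stood at 227 ppm, while Entpd1 (CD39), which acts ahead of it, was the lowest with 14.1 ppm and 7.41 FPKM. Nrp1, a surface protein of thymus-derived Treg, stood at 136 ppm and Klrg1, found on effector Treg, at 33.5 ppm. The recovered libraries held 935 and 584 Klrg1 reads.

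Co-stimulatory receptors were present without exception. The 14 members ranged from 44.5 ppm for Cd226 to 710 ppm for Tnfrsf4, with Cd27 at 420 ppm and Icos at 308 ppm. Among inhibitory receptors 11 of 12 were detected. Next to Cd5 and Ctla4, Tigit had 211 ppm and Cd96, which shares a ligand with it, 144 ppm. Pdcd1 (PD-1) and Lag3 had 132 and 142 ppm, while Havcr2 (TIM-3) had 1.78 ppm, with 1.67 and 1.89 ppm in the control libraries. Cd244 was the lowest, with 0.201 ppm and 7 and 16 reads.

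Of the chemokine receptors, 13 of 16 were detected, with a median of 19.8 ppm. Ccr7, which brings cells into lymph nodes, led with 510 ppm and 283 FPKM. Ccr8 and Ccr4, receptors of skin- and tissue-seeking Treg, stood at 114 and 110 ppm, and Cxcr4 at 109 ppm. Cxcr5 of follicular T cells had 78.9 ppm, Ccr6 had 57.5 ppm and Cxcr3 had 43.8 ppm. Ccr1 was the lowest with 0.280 ppm, from 13 and 12 reads in the control libraries.

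The interleukin-2 receptor stood out among the cytokine receptors. Its beta and gamma chains, Il2rb and Il2rg, had 1009 and 803 ppm and, with Il2ra at 477 ppm, were the 3 highest of 27 members. Il27ra followed with 246 ppm. Il7r, the receptor chain of interleukin-7 that Treg carry at low level, had 72.7 ppm. Il1rl1, the interleukin-33 receptor of tissue Treg, had 21.3 ppm. The lowest was Il23r at 0.497 ppm, with 20 and 19 reads, so 26 of the 27 were detected.

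Genes of lymph node entry and exit were high together. All 18 adhesion, homing and egress genes were detected, with a median of 139 ppm. Selplg, the ligand of P-selectin, had 688 ppm and 395 FPKM, and the integrin chains Itgb7 and Itgb2 had 668 and 476 ppm. S1pr1, the receptor that guides exit from the node, had 310 ppm. Cd44, a marker of activated cells, had 56.4 ppm. Itgb8, which activates latent TGF-beta, was the lowest at 7.28 ppm.

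Genes of the surface lists mostly had promoters poor in CG pairs. The median over 78 promoters of detected surface genes was 5 CG pairs in 300 bases, against 24 over 62 detected transcription factor genes, 20 over 109 metabolic genes, 22 over all genes at 10 to 100 ppm and 2 over genes listed at 0. At 15 or more CG pairs stood 24.4% of the surface promoters, 72.6% of the transcription factor promoters and 78.0% of the metabolic ones. At 100 ppm or more, surface genes had a median of 7 CG pairs and transcription factor genes a median of 25.

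The 100 bases ahead of the start are printed for 3 label markers and for the transcription factors Junb and Klf2, with CG pairs in capitals. The surface genes Il2ra and Ctla4 beside Junb and Klf2 show this difference. Foxp3 is also a transcription factor but goes the other way, with few CG pairs like the surface genes shown. Il2ra, Ctla4 and Klf2 stood at similar levels (477, 427 and 429 ppm), Foxp3 lower at 254 ppm and Junb higher at 822 ppm. Ikzf2 had no entry. The windows are Foxp3 at chrX:7579576-7579675, Il2ra at chr2:11642692-11642791, Ctla4 at chr1:60908925-60909024, Klf2 at chr8:72318962-72319061, all on the plus strand, and Junb at chr8:84978749-84978848, on the minus strand.
Foxp3: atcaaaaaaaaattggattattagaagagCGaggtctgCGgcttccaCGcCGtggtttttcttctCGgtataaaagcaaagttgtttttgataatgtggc
Il2ra: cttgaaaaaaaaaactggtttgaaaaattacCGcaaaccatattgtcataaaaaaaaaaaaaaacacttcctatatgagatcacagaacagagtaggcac
Ctla4: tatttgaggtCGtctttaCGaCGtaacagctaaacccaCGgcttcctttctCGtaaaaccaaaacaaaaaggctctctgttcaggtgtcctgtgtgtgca
Klf2: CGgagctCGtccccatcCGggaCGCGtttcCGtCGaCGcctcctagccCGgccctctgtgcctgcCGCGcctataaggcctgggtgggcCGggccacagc
Junb: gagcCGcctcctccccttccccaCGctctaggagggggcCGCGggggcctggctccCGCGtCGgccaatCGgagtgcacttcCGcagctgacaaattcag
Over the full 300 bases Foxp3, Il2ra and Ctla4 had 6, 3 and 8 CG pairs, and Klf2 and Junb had 32 and 21.

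All 21 factors of the Treg list were detected, with a median of 81.8 ppm. Tcf7 (TCF-1), a factor of naive and memory T cells, led with 721 ppm and 417 FPKM, ahead of Foxp3 itself. Nr4a1, which is induced by T cell receptor signals, had 217 ppm and Cbfb, the partner of the Runx factors, had 189 ppm. Foxo1 had 167 ppm, and Foxo3 was the lowest with 22.9 ppm. The Ikaros family was detected in full, with Ikzf1 at 194 ppm, Ikzf2 at 181 ppm, Ikzf4 (Eos) at 122 ppm, Ikzf3 at 80.9 ppm and Ikzf5 at 24.2 ppm.

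Factors of the helper lineages were present at very different levels. Batf had 279 ppm, Stat6 had 140 ppm and Hif1a had 120 ppm. Of the factors that mark a lineage, Gata3 of T helper 2 cells had 107 ppm, Bcl6 of follicular helper cells 14.4 ppm and Tbx21 of T helper 1 cells 5.77 ppm. Tbx21 had 188 and 258 reads in the control libraries, which is 4.41 and 7.13 ppm. Eomes was the lowest at 1.64 ppm, with 2.32 ppm in the deeper library and 0.959 ppm in the other.

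In the T lineage list Ets1 had 421 ppm, second to Tcf7, and Bcl11b had 192 ppm. E proteins, which Id2 and Id3 inhibit, were led by Tcf3 with 59.4 ppm and Tcf12 with 18.9 ppm, while Tcf4 was the lowest of the list with 1.31 ppm. The inhibitors stood close by, Id3 with 57.7 ppm and Id2 with 46.3 ppm. In the library labelled control their order was wider, with 160 FPKM for Id3 and 18.6 FPKM for Id2.

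Factors that keep T cells quiescent and factors that answer stimulation were both abundant. Among the former, Slfn2 had 883 ppm, Btg1 had 477 ppm, Klf2, which drives S1pr1, had 429 ppm and Btg2 had 217 ppm, while Klf4 was the lowest of 14 with 4.66 ppm. Among the latter, Junb had 822 ppm, Nfkbia, the NF-kappaB inhibitor, had 794 ppm and Jund had 407 ppm. Fos and Egr1, which are induced within minutes of stimulation, stood at 136 and 134 ppm. Fosl1 was the lowest of 24 with 1.02 ppm, from 29 and 26 reads.

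Seen by whole families as the deposited descriptions name them, detection was uneven. All 12 genes described as interferon regulatory factors (among them binding proteins of Irf2), all 7 STAT factors and all 8 GIMAP GTPases, which serve lymphocyte survival, were detected. Of the homeobox factors 22 of 212 were detected, of the SOX factors 2 of 19 and of the T-box factors 2 of 14. As a background, 4 of 1106 olfactory receptors, 2 of 330 vomeronasal receptors and 0 of 55 defensins passed 1 ppm.

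**Figure D3:**
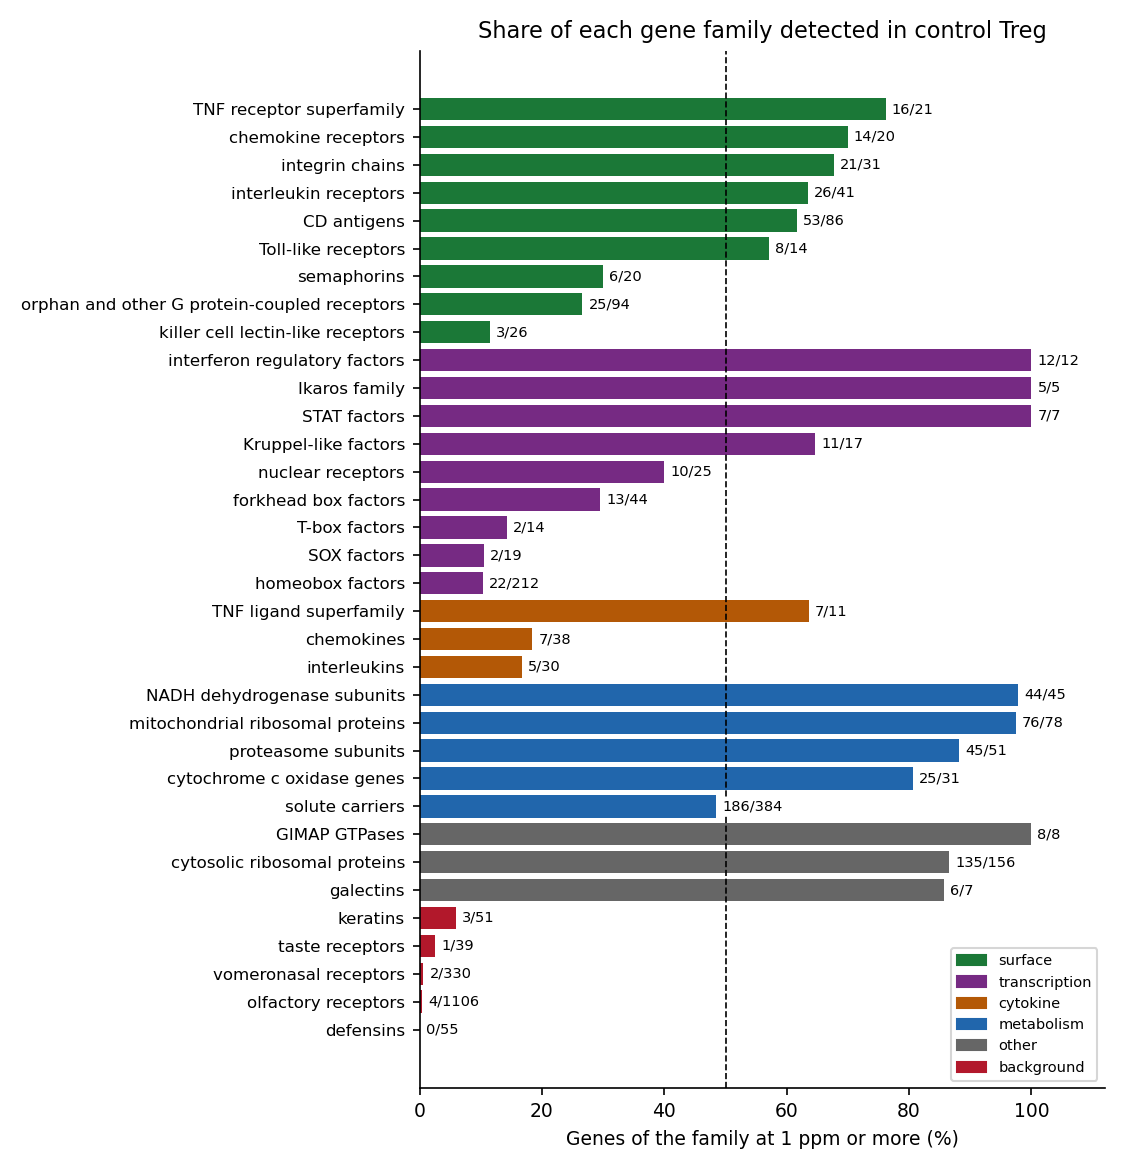
Share of the genes of each family at 1 ppm or more in the numbered control mean (percent), with counts beside the bars, and the share over all counted genes, 50.1%, as a dashed line. STAT, Ikaros, GIMAP and interferon regulatory factor genes reach 100%, whereas olfactory receptors and defensins lie near 0.

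Interleukins and interferons were mostly not detected. Of 19 interleukins and interferons 7 were detected, with a median of 0.288 ppm. Il16, whose precursor is made by resting T cells, led with 159 ppm, followed by Ebi3 with 74.8 ppm and Il10 with 29.6 ppm. Il10 reads numbered 785 and 462 in the control libraries, which is 35.0 and 24.2 ppm. Csf1 had 12.5 ppm. Ifng had 5.86 ppm from 113 and 110 reads and Il2 had 2.17 ppm from 38 and 40 reads.

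Il4 differed between the control libraries, with 122 reads in the deeper and 34 in the other, which is 5.80 and 1.90 ppm. Il17a had 4 reads in each library and 0.217 ppm, and Il17f had 4 and 3 reads. Il3 and Il27 were listed at 0, where 3 reads would have been 0.164 and 0.101 ppm. Ebi3 joins Il12a to form interleukin-35, and Il12a had 2 reads in the deeper library and none in the other, or 0.0426 ppm, and was listed at 0 FPKM.

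Members of the TNF family and TGF-beta were detected more often than interleukins, with 13 of 15 detected and a median of 41.9 ppm. Ltb, a chain of lymphotoxin, led with 1222 ppm and 1109 FPKM. Tgfb1 had 287 ppm, Lta had 147 ppm and Tnf had 62.9 ppm. Tgfb2 was the lowest with 0.122 ppm from 8 and 10 reads. Of the chemokines 4 of 11 were detected, with Cxcl10 at 29.6 ppm, Ccl5 at 8.61 ppm, Ccl20 at 7.23 ppm and Xcl1 at 4.30 ppm. Xcl1 had 10 reads in the deeper library and 57 in the other, and Ccl3 was the lowest with 0.173 ppm.

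Suppressive mediators were detected in 17 of 18 cases. Lgals1, the lectin galectin-1, led with 630 ppm and 384 FPKM, followed by Ctla4, Tgfb1 and Nt5e as given above. Gzmb, which encodes granzyme B, had 19.3 ppm from 431 reads in each library. Gzma had 5.10 ppm, with 118 reads in the deeper and 30 in the other library, and Prf1 had 3.51 ppm. Only Il12a was not detected.

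Energy metabolism genes were expressed nearly without gaps. All 30 nuclear-encoded respiratory chain genes were detected, with a median of 292 ppm, and were led by Cox8a at 799 ppm, Atp5a1 at 766 ppm, Atp5b at 640 ppm and Cox5b at 572 ppm. The lowest was Cox7c with 33.7 ppm, but 87.8% of the counts of Cox7c and its copies lay in 2 copies. All 20 genes of the TCA cycle were detected, with a median of 125 ppm, from Idh2 at 52.2 ppm to Mdh2 at 425 ppm. Cs, Mdh1 and Sdhd followed Mdh2 with 245, 244 and 203.6 ppm. The 13 protein-coding genes of the mitochondrial genome have rows listed at 0 and were not counted.

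All 20 glycolysis genes were detected, with a median of 82.2 ppm. Pkm and Ldha, the enzymes of the last steps to lactate, had 1026 and 844 ppm, Eno1 had 405 ppm and Aldoa had 356 ppm. The glucose transporters Slc2a1 and Slc2a3 had 36.3 and 28.6 ppm. Hk1, the hexokinase of resting cells, had 60.6 ppm and Hk2, which is induced on activation, had 6.04 ppm, with 581 and 556 reads. Aldoc was the lowest with 5.51 ppm.

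The lists of lipid, amino acid and redox genes had lower medians than the respiratory chain. Fatty acid oxidation genes were detected in 16 of 17 cases with a median of 61.1 ppm. They were led by Etfb at 177 ppm, Acaa2 at 176 ppm, Etfa at 139 ppm and Acadvl at 85.3 ppm, and Ppara had 0.0712 ppm. Cpt1a, the entry step of fatty acids into mitochondria, had 61.1 ppm. Genes of cholesterol and fatty acid synthesis were detected in 20 of 21 cases with a median of 32.4 ppm. Srebf2, their regulator, led with 128 ppm, then Fdps with 93.2 ppm, Scd2 with 92.8 ppm and Srebf1 with 58.2 ppm, while Scd1 had 0.0827 ppm from 9 and 4 reads.

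The 16 genes of amino acid transport and the growth kinase complex mTORC1 were all detected with a median of 32.2 ppm. Slc1a5, the glutamine transporter, led with 160 ppm, ahead of Glud1 at 153 ppm, Slc3a2 at 105 ppm and Slc38a2 at 77.1 ppm, and Rptor was the lowest with 9.99 ppm. Of 18 redox genes all were detected, with a median of 70.6 ppm. Sod1 had 857 ppm, Gpx1 had 554 ppm, Txn1 had 360 ppm and Gpx4 had 304 ppm, and Nqo1 was the lowest with 1.75 ppm.

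MHC class I genes were the most abundant of all lists, with a median of 579 ppm over 12 members. B2m had 9120 ppm and 5716 FPKM, H2-K1 had 4388 ppm, H2-D1 had 2857 ppm and H2-Q7 had 621 ppm, while Psmb9 of the immunoproteasome was the lowest with 176 ppm. Genes of cell division were also on. All 20 were detected with a median of 93.4 ppm, with Ccnd2 at 428 ppm, Pcna at 348 ppm, Mcm6 at 259 ppm and Mcm3 at 190 ppm, and Tyms the lowest at 30.0 ppm. Of the scaled counts of Pcna and its annotated copy, 24.3% lay in the copy. Mki67, a marker of cycling cells, had 85.4 ppm.

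The control libraries could be compared with each other for 5033 genes with a mean of up to 500 and at least 20 reads. Between them, 507 genes (10.1%) differed by more than 2-fold, 240 higher in the deeper library (4.77%) and 267 higher in the other (5.3%). From a mean of 100 on, 61 of 2047 genes (2.98%) did so, and the median difference was 0.18 on the log2 scale. Of 75 list members with recovered reads, 13 differed by more than 2-fold, 6 higher in the deeper library and 7 in the other. Those higher in the deeper library were Eomes, Pparg, Il4, Gzma, Igj and Mzb1. Those higher in the other were Lair1, Cd244, Cx3cr1, Xcl1, Lyz2, Flt3 and Cd8a. All 13 had means below 100 scaled counts.

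From a mean of 100 on, with predicted genes left out, genes of the Y chromosome differed most. Kdm5d had 285 reads in the deeper library and 3 in the other, and Uty had 316 and 12. In the library labelled control they had 4.91 and 4.47 FPKM. The next largest differences, all higher in the deeper library, were Homer2 with 786 and 46 reads, Dnase1l3 with 935 and 64, Pdlim4 with 771 and 58, and Faim3 with 891 and 81. Cd80, a co-stimulatory ligand, had 324 and 61 reads, which is 11.1 and 2.46 ppm. Zan, with 175 and 677 reads, was the largest difference the other way in this range of means, and Xcl1, with a lower mean, had 10 and 57 reads. The labels used here give no sex, and its part in these differences was not tested.

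**Figure D4:**
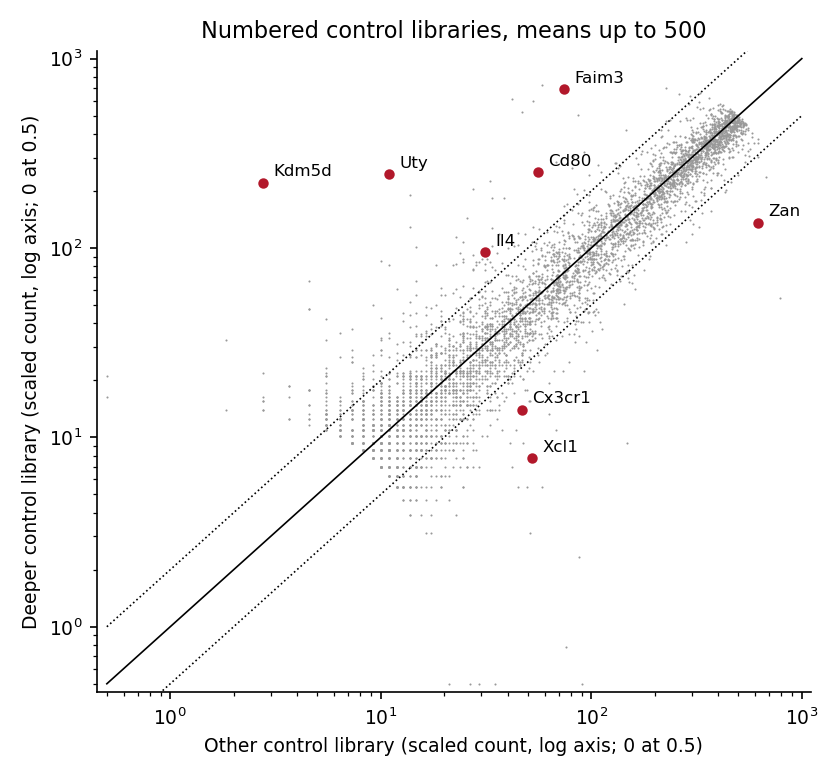
Scaled counts of 5033 genes in the deeper control library against the other (both log axes), for means of up to 500 and at least 20 reads. The solid line marks equality and the dotted lines a 2-fold difference. Most genes lie between the dotted lines, and the Y-linked Kdm5d and Uty lie farthest above them.

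The library labelled control gave a similar order of genes. Across 10866 genes at 1 or more in either table, Spearman's rho was 0.903 between ppm and FPKM, and genes are not independent replicates. After centring, 1398 genes (12.9%) differed by more than 2-fold, 726 higher in the library labelled control (6.68%) and 672 lower (6.18%). The median difference was 0.05 on the log2 scale for the Treg factors and -0.14 for the Treg surface markers, against -0.003 over all genes. Leaving aside the lists of other cell types, list medians ranged from -0.37 for cell division (20 genes) to 0.64 for chemokines (6 genes). Of the Treg surface markers, 3 of 16 differed by more than 2-fold, all lower. In the T lineage list 5 of 18 did so, all higher. The tables differ in build, annotation, counting, unit and instrument, and each side has 1 column, so no test was possible.

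With predicted genes left out, the 4 largest differences towards lower FPKM lay in ribosomal protein genes. Rpl26 had 2531 ppm and was listed at 0 FPKM, Rpl36a had 777 ppm and was listed at 0 FPKM, and Rpl23a and RPL24 had 3850 and 2080 ppm but 1.56 and 0.666 FPKM. Each of these has 4 or more annotated copies. The copies held 0.311% of the joint scaled counts for Rpl26, 0.101% for Rpl36a, 0.311% for RPL24 and 22.003% for Rpl23a. The part of copies in these differences was not tested. In glycolysis 6 of 20 genes were more than 2-fold lower, among them Gapdh with 232 ppm and 0.308 FPKM and Eno1 with 405 ppm and 1.26 FPKM. In the other direction Cox17 had 24.9 ppm and 213 FPKM, Mrpl33 had 17.4 ppm and 165 FPKM, Csl had 0.202 ppm and 13.3 FPKM, Acot10 had 0.0796 ppm and 12.2 FPKM, and the lower of the rows named Larp1b had 0.717 ppm and 22.2 FPKM. Acot10 has a copy that holds 99.9% of their joint scaled counts. The ppm of Cox17 and Mrpl33 were computed over joined exon lengths of 5773 and 7473 bases, and both genes overlap another gene. The part of these lengths in the differences was not tested.

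**Figure D5:**
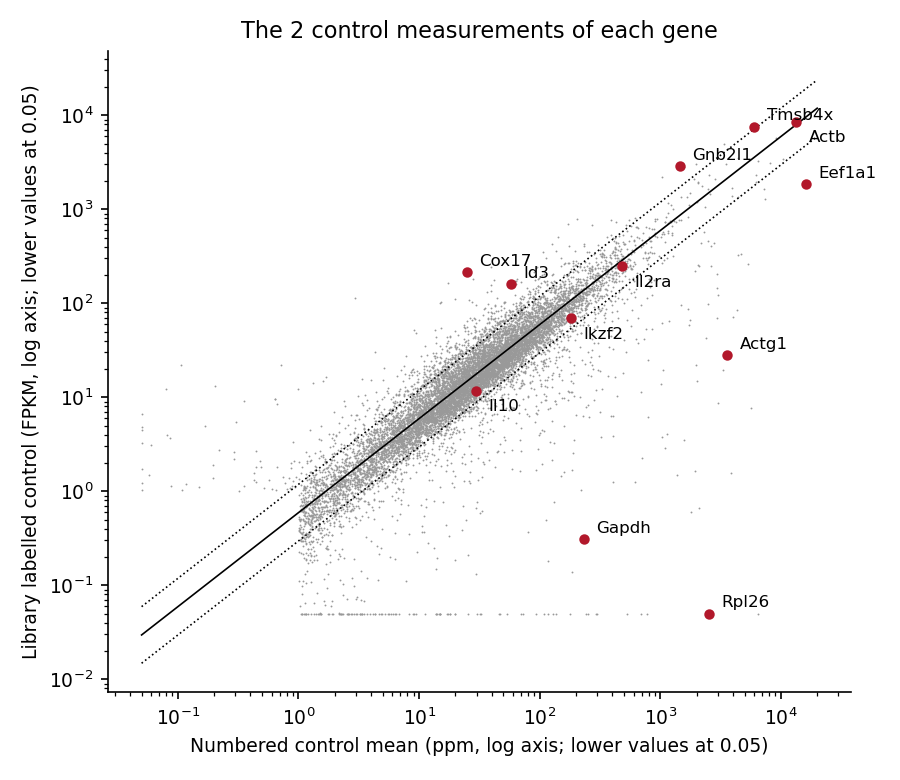
FPKM in the library labelled control against ppm in the numbered control mean for 10866 genes (both log axes). The solid line is the median ratio and the dotted lines mark 2-fold around it. Il2ra, Ikzf2 and Il10 lie between the dotted lines, while Rpl26, Gapdh and Actg1 lie far below and Cox17 far above.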

How the data were processed

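Treg libraries were made from messenger RNA with random hexamer and oligo-dT priming and dUTP strand marking, per the labels' protocols. The deposited signal columns of the numbered libraries hold group means, which the file headers call raw counts. Their fractional steps are those of reads divided by a size factor per library, so they are called scaled counts here, and the design's count-based assumptions were replaced by description. The other deposited number per row is the exon length. Per the submitters' processing notes, RSEM and DESeq were used on mm10 (GRCm38) for these, and TopHat 1.4.0 and Cuffdiff 0.0.6 on mm9 for the unnumbered pair, whose FPKM per RefSeq entry the authors deposited. No source used here says if the strand entered the counting. The table marks 7970 of the protein-coding genes as confounded, and these overlap another gene.

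From the means, ppm were computed per deposited exon length over protein-coding rows. Because that length joins the exons of all transcripts, ppm of genes with many transcripts are understated. Reads per control library were recovered from the mean as a whole number of steps of 0.389 (deeper library) and 0.458 (other library), within 6e-05. Of 22135 values up to a mean of 1000, 96.2% had 1 solution, and counts over genes use means of up to 500. Values between 500 and 1000 are given where the solution is unique. FPKM were summed over the entries of a gene (26977 of 27901 matched 1 gene), and differences are log2 ratios with a pseudocount of 1, which understates low genes, centred on 10082 genes at 1 or more in both tables. Copies of named genes were sought with BLAST 2.17.0 among GENCODE transcripts, at 95% identity over 80% of the coding sequence. Scripts ran in Python 3.11.15 with numpy 2.4.6, pandas 2.3.3 and matplotlib 3.10.9, and the recovery was tested on simulated data.

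There were 37 lists with 509 symbols, and 503 of these had a row. Members and lists were chosen with earlier results of these data known. Named genes are the 20 highest scaled counts, the 4 label markers, the 4 highest (2 for other cell types) and the lowest of each list, members listed at 0, and the 5 largest differences each way between the tables at 10 or more in either. Predicted genes are counted only. Further genes were chosen after their values were seen. No test was run, because the report concerns 1 condition and its values are group means. The alternatives were other limits, pseudocounts, lengths, rankings, gene sets and single libraries. Values of a few list members are not reported here.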

Additional observations from a re-analysis of the deposited data

Results flagged for a closer look

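Signal was also present in rows that are not protein-coding, above the 3 counts that a count of 0 allows. Gm26924, annotated as a lincRNA at chr17:39846958-39848788 in the deposited coordinates, had 1736965 scaled counts, 4.46% of all scaled counts and more than any protein-coding gene. RefSeq places Rn18s-rs5, a sequence related to 18S ribosomal RNA, over 1245 of its 1831 bases (GRCm38.p6).

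Ighm, the constant region of the antibody heavy chain mu, had 17317 scaled counts, or 875 on the ppm scale of the protein-coding rows. Beside it Igkc had 394 scaled counts, or 91.5 on the same ppm scale, from 823 reads in the deeper library and 161 in the other. Igha had 507 scaled counts, or 36.8 ppm, from 1017 and 245 reads. The B cell gene Ms4a1 had 1.76 scaled counts, and 4 of 12 B cell markers were detected. Of 7 measured plasma cell markers 4 were detected. Among plasma cell markers Igj had 129 reads in the deeper library and 44 in the other, and Mzb1 had 24 and 4. Tnfrsf17 of the same list had 1.24 scaled counts. The source of the Ighm, Igkc and Igha signal was not tested.

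Xist, the transcript that silences an X chromosome in female cells, had 19641 scaled counts in the numbered control mean and 0.0323 FPKM in the library labelled control. The Y-linked genes Eif2s3y and Ddx3y had 508 and 464 scaled counts, and 51.3 and 21.6 FPKM.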

How the results depend on the processing

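Directions were not at stake, since counts and shares of 1 condition were recomputed. Detected genes numbered 9448 at 5 ppm, 6422 of 14589 (44.0%) without overlapping genes, and 11272 to 11307 with each control library alone. Without overlapping genes, 25 of the 100 most abundant genes were ribosomal protein genes, and all 100 together then held 26.8% of the scaled counts. The share of the 100 most abundant genes was 34.0% of the ppm when ranked per length. It was 23.6% of the scaled counts over all biotypes and 18.1% without ribosomal protein genes. List members detected were 387 of 415, and 241 without overlapping genes. Members of lists of other cell types detected were 21, and 13 at 5 ppm, 12 by FPKM and 20 to 22 with each control library alone (chosen after seeing the data). Genes past 2-fold between the tables were 1398, and 901 with a pseudocount of 5. Fewer genes entered wherever overlapping genes were left out. The cause of the other shifts was not tested. List by list, 26 of 108 counts moved by more than 1.5 times, 18 of them without overlapping genes. No paired analysis was possible because the deposited columns are group means that carry no replicate numbers. Means above 1000 scaled counts have no spread, which covers the most abundant genes, and low genes are limited by counting error.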

Other observations

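The T cell receptor genes themselves lie in rows of other biotypes. On the ppm scale of the protein-coding rows, Trbc2 stood at 5943, Trac at 3002 and Trbc1 at 2488. Of 23 Trbv rows, 21 stood at 1 ppm or more, led by Trbv13-2 at 361 ppm and Trbv19 at 292 ppm, and of 105 Trav rows 97 did so. Tcrg-C1, a constant region of the gamma chain and one of the listed gamma-delta T cell markers, stood at 42.2 ppm.

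Several families outside the lists were well represented. All 8 GIMAP genes stood at 100 ppm or more, led by Gimap3 at 1074 ppm and Gimap4 at 861 ppm. Cd52 had 1572 ppm and Slc25a5, the mitochondrial ADP/ATP carrier, 1074 ppm. Hopx, an atypical homeobox gene, stood at 140 ppm, above the other 211 homeobox genes. Tlr1 had 86.3 ppm and Tlr7 18.4 ppm. Of 26 killer cell lectin-like receptors only Klrg1, Klrb1f and Klrb1c were detected at 1 ppm.

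Rows of the mitochondrial chromosome were listed at 0, while pseudogene rows that resemble them were not. Gm13340 had 110914 scaled counts and matched mt-Co1 over 1545 bases at 97.6% identity. Gm13341 had 62616 scaled counts and matched mt-Co2 over 684 bases at 95.9%.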
